A study of Rattus norvegicus with 8 samples.

Results

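The genes described here are 10 genes of blood vessel growth and of the vessel wall, read in the adrenal glands of newborn rats kept in low oxygen or in room air. They are the growth factor gene Vegfa, its receptors Kdr, Flt1 and Nrp1, the angiopoietin receptor Tek, the endothelial markers Pecam1 and Vwf, the endothelin genes Edn1 and Ednrb, and the co-receptor gene Eng. They were chosen by gene symbol, and every probe set that the platform's annotation assigned to one of these symbols alone was taken. This gave 12 of 15866 probe sets, for 8 of the 10 genes, out of 10411 named genes in all. For Tek and Ednrb the table used here names no such probe set, and they are not analysed here. All 12 probe sets passed the filter on dim signal.

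Hypoxic pups had lived with their dams at 12% O2 from birth to postnatal day 7. Normoxic pups lived in room air with dams that ate freely, and the labels give no strain or genotype. Glands were stripped of their capsule, and 24 glands were combined into each of 4 pools per group, each read on 1 array of 1 colour. A pool mixes many pups, so the spread between pools understates that between animals. Nothing in the labels says how litters were spread over the pools. The p-values therefore measure only the spread between these pools.

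The adrenal cortex is threaded by sinusoidal capillaries that lie against its steroid-making cells and drain towards the medulla. VEGF-A, made by parenchymal cells, acts on endothelial cells through the receptor VEGFR2, the product of Kdr. VEGFR1, the product of Flt1, binds the same ligand as a partial decoy, and neuropilin 1 serves as a co-receptor. Under low oxygen, hypoxia-inducible factors can raise transcription of Vegfa, Flt1 and Edn1 by binding short elements with the core letters ACGTG or GCGTG.

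These core letters were looked for in the promoter windows of the members, because the study's treatment was low oxygen. Each window is 300 bases of the RefSeq annotation of rat build GRCr8, from 250 bases before a gene's start to 50 after it. Of the 10 members, 7 had a window in the table, 8 windows in all, with 2 for Vegfa. Either core, ACGTG or GCGTG on either strand, was present in 5 of the 8 windows, and in 41.6% of all 33469 windows. Windows of the ligand genes and the VEGF receptors are shown here 5′ to 3′ in the direction of transcription, with the cores in capitals. Kdr lies at chr14:32571813-32572112 on the + strand, Flt1 at chr12:12333180-12333479 on the + strand, Nrp1 at chr19:73256307-73256606 on the + strand, Edn1 at chr17:22666638-22666937 on the - strand, and the first window of Vegfa at chr9:22452604-22452903 on the + strand.
Kdr: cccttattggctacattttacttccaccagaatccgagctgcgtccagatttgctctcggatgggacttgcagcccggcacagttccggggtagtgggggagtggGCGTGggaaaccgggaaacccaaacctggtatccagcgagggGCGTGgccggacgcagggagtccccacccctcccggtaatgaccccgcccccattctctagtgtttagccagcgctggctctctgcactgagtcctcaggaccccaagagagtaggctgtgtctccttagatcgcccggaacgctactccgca
Flt1: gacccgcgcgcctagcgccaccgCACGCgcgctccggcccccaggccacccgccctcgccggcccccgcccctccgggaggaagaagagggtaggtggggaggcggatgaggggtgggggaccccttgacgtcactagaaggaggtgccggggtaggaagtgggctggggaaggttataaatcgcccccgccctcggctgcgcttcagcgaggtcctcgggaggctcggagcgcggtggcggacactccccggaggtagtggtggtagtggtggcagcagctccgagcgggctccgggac
Nrp1: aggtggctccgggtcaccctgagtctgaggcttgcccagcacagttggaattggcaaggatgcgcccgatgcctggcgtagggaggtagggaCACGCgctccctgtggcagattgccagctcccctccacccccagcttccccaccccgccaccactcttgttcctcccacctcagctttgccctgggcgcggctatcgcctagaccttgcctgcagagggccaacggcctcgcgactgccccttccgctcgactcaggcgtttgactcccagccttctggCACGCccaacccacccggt
Edn1: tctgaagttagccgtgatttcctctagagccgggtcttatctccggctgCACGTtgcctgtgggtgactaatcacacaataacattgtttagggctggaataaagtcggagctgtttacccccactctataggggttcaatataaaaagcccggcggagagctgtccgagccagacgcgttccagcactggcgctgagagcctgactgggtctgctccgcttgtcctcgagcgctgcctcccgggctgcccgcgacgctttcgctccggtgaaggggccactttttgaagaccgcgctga
Vegfa: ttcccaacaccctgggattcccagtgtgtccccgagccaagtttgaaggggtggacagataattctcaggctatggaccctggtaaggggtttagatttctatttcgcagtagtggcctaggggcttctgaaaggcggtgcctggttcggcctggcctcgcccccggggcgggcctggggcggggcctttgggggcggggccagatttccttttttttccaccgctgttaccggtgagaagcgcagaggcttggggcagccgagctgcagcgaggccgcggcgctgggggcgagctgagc
The Kdr window held GCGTG at bases 106 to 110 and again at 148 to 152, counted from the 5′ end. Flt1 held the reverse complement CACGC at bases 24 to 28, Nrp1 held CACGC at bases 93 to 97 and 282 to 286, and Edn1 held CACGT, the reverse complement of ACGTG, at bases 50 to 54. Neither window of Vegfa held these letters, which says only that they are not in these 300 bases. A letter match is a description, and binding was not measured. The letters AGGAAG, a core bound by ETS factors of endothelial cells, were found on either strand in 2 of the 8 windows, those of Flt1 and Eng, and in 34.5% of all windows.

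The unit of all levels is the probe set intensity, in arbitrary units, after the authors' scaling of every array to one mean. The array medians lay between 228.6 and 249.2. Bacterial control probe sets had a 95th percentile of 46.6. For testing, 16 was added and log2 was taken, so the differences understate the change of dim probe sets, and limma was run over 11106 probe sets with Benjamini-Hochberg adjustment. Of these, 20 probe sets (0.18%) had an adjusted p under 0.05. Leaving out normoxic pool 1, 2, 3 or 4 left 0, 0, 0 and 1 of such probe sets, and leaving out hypoxic pool 1, 2, 3 or 4 left 31, 0, 0 and 2. In glands read whole, fewer vessel cells and less RNA per cell cannot be told apart. Markers of other cell types of the gland were read as well, each gene at its brightest tested probe set. At these brightest probe sets all 9 tested chromaffin markers had a difference above 0, with a median of 0.25. Of the 9 markers, 5 (55.6%) had an unadjusted p under 0.05 in limma, against 8.56% of all named genes. Slc18a2, a vesicular monoamine transporter gene of the medulla, was the 1 of these that passed, at 248 ± 44.5 and 503 ± 60.8 (log2 difference 0.98, adjusted p = 0.0318). Dimmer tested probe sets had log2 differences of -0.06 for the chromaffin marker Ddc and 0.61 for Slc18a2. The summed chromaffin level overlapped, at 33001 to 44241 in normoxic and 38109 to 53102 in hypoxic pools (exact permutation p = 0.257). At their brightest probe sets all 5 tested red cell markers were above 0 as well, 2 of them (40.0%) with an unadjusted p under 0.05. A dimmer tested probe set of the red cell marker Slc4a1 was at -0.04. Red cell sums were 18315 to 21137 in normoxic and 19140.5 to 29229.6 in hypoxic pools. The part of these cells in the levels of the members was not tested.

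None of the members passed this test. Of the 12 probe sets, 0 had an adjusted p under 0.05 in limma, against 0.18% of all probe sets. An unadjusted p under 0.05 was found for 2 of the 12 (16.7%), against 8.64% of all, namely Pecam1, lower in hypoxic pools, and 1 of 3 probe sets of Flt1, higher. The log2 differences, hypoxic minus normoxic, were above 0 at 6 probe sets, where 45.2% of all probe sets were above 0, and below 0 at 6, with a median of 0.03 and a range from -0.53 to 0.47. For 10 of the 12 the 95% interval included 0. The half-widths of these intervals ran from 0.25 to 0.54, and differences within them were not detectable with 4 pools per group. Because the intervals are not adjusted over all probe sets, larger differences can fail the adjusted test too. Pecam1 (-0.53) and the Flt1 probe set at 0.47, whose intervals left out 0, did not pass it.

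**Figure D1:**
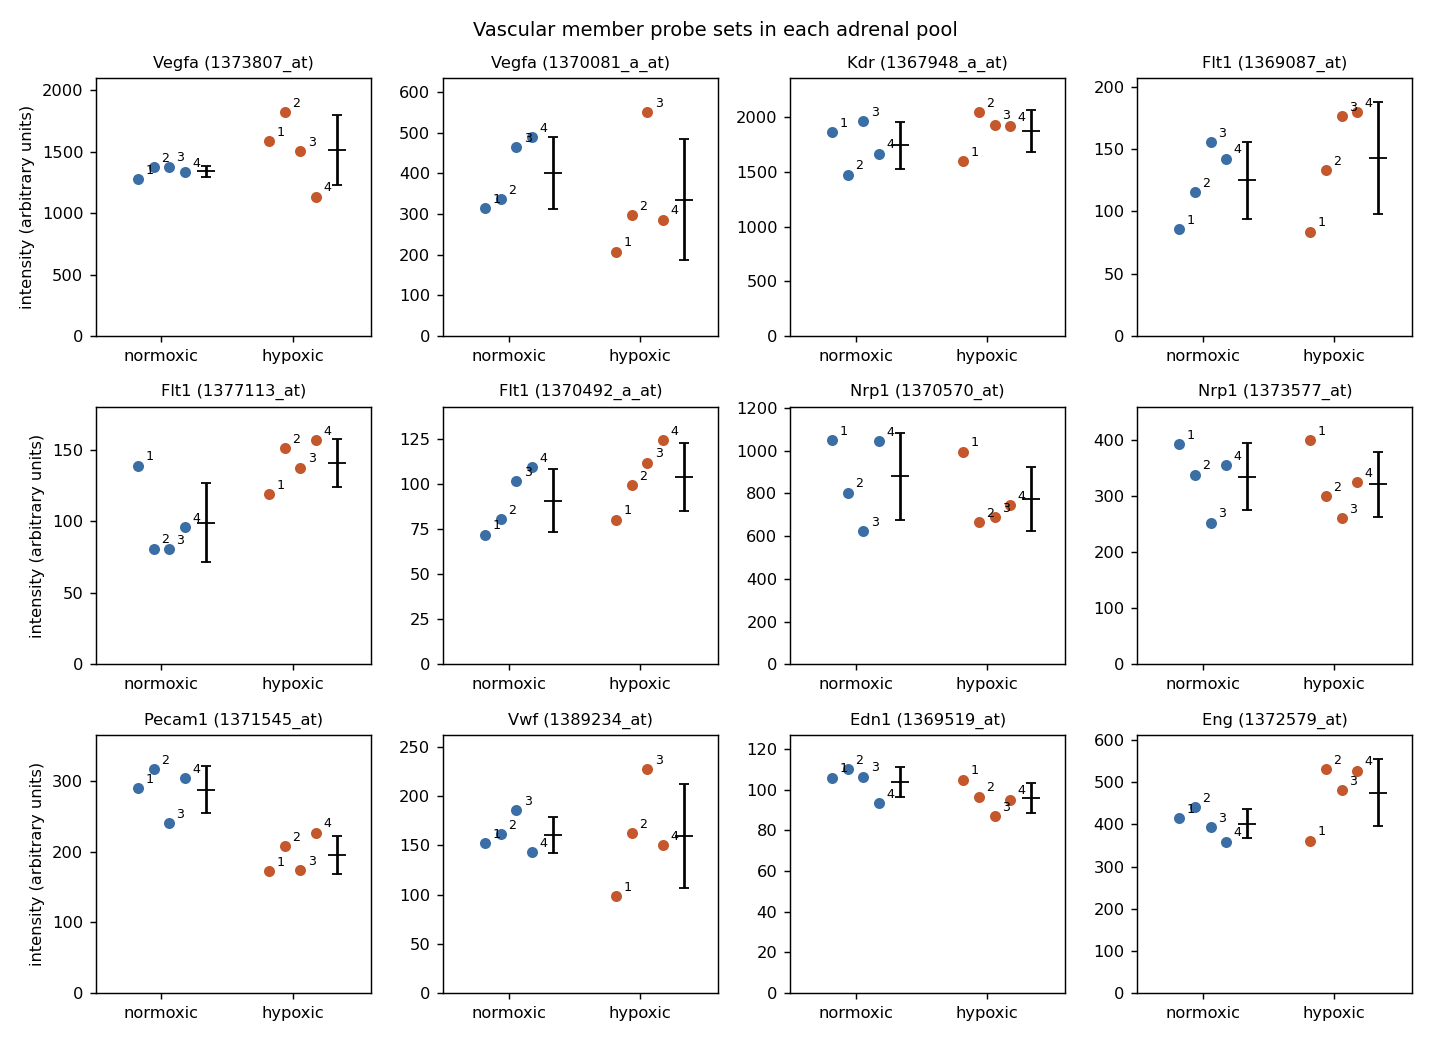
Intensity in arbitrary units (vertical axes, from 0) of the 12 member probe sets in 4 normoxic (blue) and 4 hypoxic (orange) pools, numbered by replicate, with the mean and SD beside each group. Only for Pecam1 do the groups not overlap, with all hypoxic pools at or below 227.3 and all normoxic pools at or above 240.8.

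Among the ligands, Vegfa, the main angiogenic factor of the family, had a pair of probe sets that differed in opposite directions. Its brighter probe set, 1373807_at, measured 1275, 1371.5, 1377.4 and 1334.1 in normoxic pools 1 to 4 and 1584, 1823, 1506.3 and 1134.2 in hypoxic pools 1 to 4. Hypoxic pools 1, 2 and 3 lay above every normoxic pool and hypoxic pool 4 below every one, so the groups overlapped. The means were 1339.5 ± 47.1 and 1512 ± 286 (SD, n = 4 pools each), and the log2 difference was 0.15, standard error 0.13 (adjusted p = 0.801 in limma). The normoxic pools were close together at this probe set, and most of the spread was among the hypoxic ones.

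The dimmer Vegfa probe set, 1370081_a_at, gave another order of pools. It measured 314.1, 337, 464.9 and 489 in normoxic and 206.9, 297.2, 551 and 286 in hypoxic pools. Here hypoxic pool 3 was the highest of all 8 pools and the other hypoxic pools the lowest. The log2 difference was -0.31 with a standard error of 0.25 (adjusted p = 0.79). The change at the brighter probe set exceeded that at the dimmer one by 0.46 on the log2 scale, and this difference did not pass (exact permutation p = 0.314, two-sided; adjusted p = 0.314 over 5 such comparisons, which were chosen after the values were seen). With both probe sets averaged, the difference of Vegfa was -0.08, opposite in sign to the brighter one.

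The level of the dimmer Vegfa probe set was set beside measures of RNA integrity. The beta-actin ratio compares signal from the 5′ and the 3′ end of that transcript on the control probe sets, and a low ratio means that less of the 5′ end was read. It was 0.413, 0.597, 0.744 and 0.674 in normoxic and 0.249, 0.491, 0.713 and 0.528 in hypoxic pools. Over the 8 pools the log2 level at this probe set correlated with the log2 ratio at Pearson r = 0.894 (exact permutation p = 0.00146) and Spearman rho = 0.833 (exact permutation p = 0.0154). Adjusted over 36 relations of member probe sets with this ratio, that of Gapdh and the mean of fat markers, these p-values were 0.0526 and 0.554, so the relation did not pass. The correlation was 0.925 without the 2 pools farthest from the median ratio, 0.846 within the normoxic and 0.889 within the hypoxic pools. With the ratio as a covariate, the log2 difference between groups at this probe set was -0.04. The Gapdh ratio, built the same way, gave r = 0.145 and rho = -0.0476 with this probe set (exact permutation p = 0.726 and 0.935; adjusted 0.864 and 0.962), 0.547 without the 2 pools farthest from its median, 0.846 within normoxic and -0.745 within hypoxic pools. With the Gapdh ratio as a covariate the log2 difference was -0.33. The brighter Vegfa probe set had r = -0.237 with the ratio (rho = -0.0714, exact permutation p = 0.555 and 0.882; adjusted 0.84 and 0.962; r = -0.18 without the 2 pools).

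**Figure D2:**
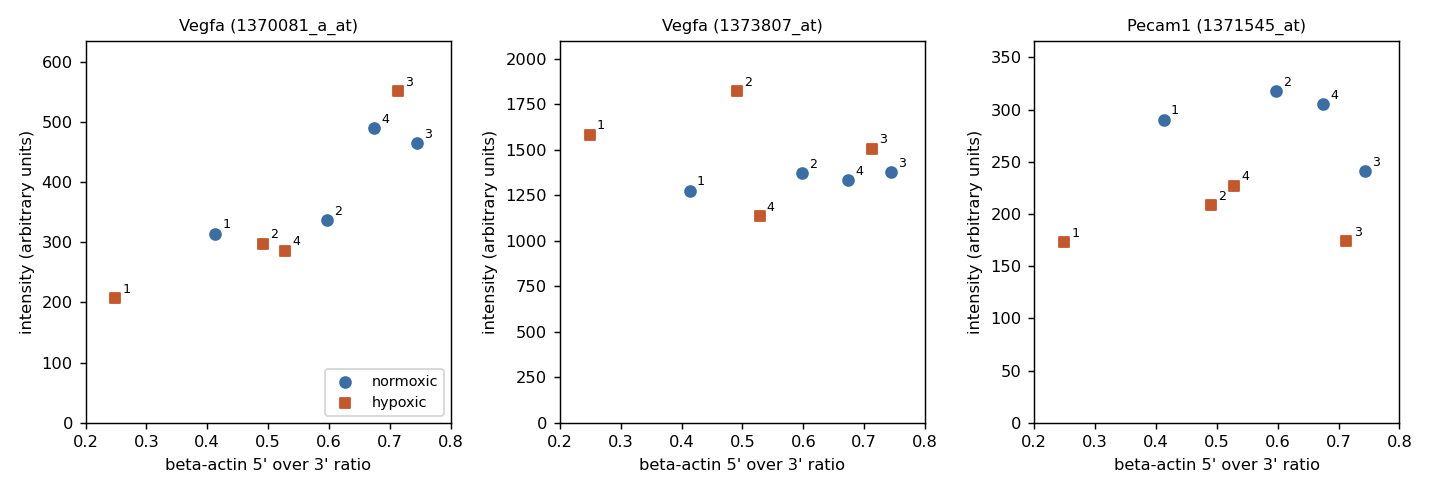
Intensity in arbitrary units (vertical axes, from 0) of both Vegfa probe sets and of Pecam1 against the beta-actin 5′ over 3′ ratio (horizontal axes) in each pool, numbered by replicate, with normoxic pools as circles and hypoxic pools as squares. The dimmer Vegfa probe set runs from 206.9 in hypoxic pool 1, which has the lowest ratio of 0.249, to 551 in hypoxic pool 3, while for Pecam1 every hypoxic pool lies below every normoxic pool.

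The receptor gene Kdr, which encodes the main signalling receptor for VEGF-A on endothelium, showed no difference larger than the spread of the pools. It measured 1865.1, 1475.1, 1966.9 and 1666 in normoxic and 1597.4, 2049, 1931.7 and 1917.9 in hypoxic pools. The groups overlapped almost wholly, with only hypoxic pool 2 above the highest normoxic pool. The means of 1743 ± 218 and 1874 ± 194 differed by 0.11 on the log2 scale, and the 95% interval was -0.14 to 0.36 (adjusted p = 0.855). Eng encodes endoglin, a co-receptor for TGF-beta and BMP ligands on endothelium. It measured 414, 440.1, 393.5 and 359.3 in normoxic and 360.9, 531.5, 480.8 and 527.4 in hypoxic pools. Hypoxic pools 2, 3 and 4 lay above every normoxic pool, and hypoxic pool 1 stood near the lowest normoxic value. The log2 difference was 0.22 with a standard error of 0.14 (adjusted p = 0.702), and 0.34 without hypoxic pool 1 (the range with 1 pool left out was 0.16 to 0.34).

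Flt1, the gene of VEGFR1, was dim, and its 3 probe sets all had higher hypoxic means. Probe set 1377113_at measured 139, 80.9, 80.7 and 96.1 in normoxic and 119, 151.2, 137.6 and 156.6 in hypoxic pools. Normoxic pool 1 lay among the hypoxic values, and the other 3 normoxic pools lay below all of them. The log2 difference was 0.47 with a standard error of 0.19 and an unadjusted p of 0.0262 in limma, which did not pass after adjustment (adjusted p = 0.503). The exact permutation test gave p = 0.0857. With 1 pool left out the log2 difference ran from 0.39 to 0.62, the highest without normoxic pool 1 (adjusted p = 0.279). The unadjusted p in limma rose to 0.0742 without normoxic pool 2, 0.0696 without normoxic pool 3, 0.0642 without hypoxic pool 2, 0.0644 without hypoxic pool 4 and 0.0655 when the fit held the Gapdh ratio.

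The other Flt1 probe sets differed by less and ranked the pools differently. At 1369087_at the values were 85.8, 115.5, 155.8 and 142.5 in normoxic and 83.8, 133.3, 176.4 and 179.9 in hypoxic pools, with a log2 difference of 0.16 (adjusted p = 0.9). At 1370492_a_at they were 72, 80.7, 101.8 and 109.4 in normoxic and 80.3, 99.7, 112.1 and 124.4 in hypoxic pools, with a log2 difference of 0.17 (adjusted p = 0.859). At both, pool 1 was the lowest of its group, whereas normoxic pool 1 was the highest of its group at 1377113_at. Level at 1369087_at had r = 0.782 and rho = 0.69 with the beta-actin ratio (exact permutation p = 0.0155 and 0.0694; adjusted over 36 relations 0.186 and 0.591), and r fell to 0.231 without the 2 pools farthest from the median ratio, so the relation over all 8 pools rested on those pools. Within groups r was 0.987 over the normoxic and 0.943 over the hypoxic pools. The 2 pools left out were normoxic pool 1 and hypoxic pool 1, so each within-group r still holds 1 of them. With that ratio as a covariate the log2 differences of the 3 probe sets were 0.45 at 1377113_at, 0.41 at 1369087_at and 0.3 at 1370492_a_at, with adjusted p of 0.413, 0.348 and 0.537.

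Nrp1 encodes neuropilin 1, which binds VEGF-A beside Kdr and is also made by cells other than endothelium. Probe set 1370570_at measured 1048, 802.7, 623.8 and 1043.6 in normoxic and 996.1, 665.7, 690.2 and 745.5 in hypoxic pools. All hypoxic values lay within the normoxic range. The log2 difference was -0.17 with a standard error of 0.18 (adjusted p = 0.85). Probe set 1373577_at, at 393.2, 338.7, 253.3 and 355.6 in normoxic and 399.7, 300, 261 and 324.9 in hypoxic pools, ranked the pools of each group in nearly the same order. Its log2 difference was -0.06 (adjusted p = 0.957), and it changed sign without normoxic pool 1 (0.02) or hypoxic pool 3 (0.03).

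Nrp1 was set beside the markers of fat, which a dissected gland can carry. The 9 of 12 fat markers with a probe set summed to 4789 to 13392 in normoxic and 4312 to 9906 in hypoxic pools, and the brown fat gene Ucp1 measured 1066 ± 789 and 337 ± 176. The highest sums were those of normoxic pools 1 and 4, which also had the highest Nrp1 values at 1370570_at. The correlation of this probe set with the mean log2 of the fat markers was r = 0.747 and rho = 0.643 (exact permutation p = 0.0397 and 0.0962; adjusted over 36 relations 0.286 and 0.591), 0.599 without the 2 pools farthest from the median, 0.821 within normoxic and 0.554 within hypoxic pools. Neither p passed after adjustment. The probe set 1373577_at had r = 0.439 and rho = 0.405 (exact permutation p = 0.275 and 0.327; adjusted 0.84 and 0.949), 0.217 without those 2 pools, 0.639 within normoxic and 0.157 within hypoxic pools. With the mean of the fat markers as a covariate the log2 difference of Nrp1 was -0.01 at 1370570_at and 0.02 at 1373577_at. With the beta-actin ratio instead it was -0.32 and -0.2 (adjusted p = 0.423 and 0.585 in limma). Level at 1373577_at had r = -0.742 and rho = -0.762 with that ratio (exact permutation p = 0.0278 and 0.0368, adjusted 0.25 and 0.591). Here r was -0.452 without the 2 pools farthest from the median ratio, -0.781 within normoxic and -0.96 within hypoxic pools. Each group holds 1 of those 2 pools. At 1370570_at r was -0.527 (exact permutation p = 0.171, adjusted 0.77). The cause was not tested.

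Pecam1 was the only member whose groups did not overlap. It encodes PECAM-1 (CD31), an adhesion molecule at the junctions between endothelial cells that platelets and some leukocytes carry as well. Probe set 1371545_at measured 290.3, 317.7, 240.8 and 304.9 in normoxic and 173, 208.2, 174 and 227.3 in hypoxic pools. Every hypoxic pool lay below every normoxic pool, which was the case in either direction for 1 of 12 member probe sets (8.33%) and for 5.39% of all. The means were 288 ± 33.7 and 196 ± 26.7 (SD, n = 4 pools each), a fold of 0.694 with 16 added to each value. On the log2 scale this was -0.53, standard error 0.14, 95% interval -0.83 to -0.22. The unadjusted p in limma was 0.0027 and the adjusted p was 0.238, so Pecam1 did not pass over all probe sets. The exact permutation test gave 0.0286, the smallest p it can give with 4 pools against 4.

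Pecam1 was lower in hypoxic pools in each refit that tested it. Its log2 difference ran from -0.61 to -0.47 with 1 pool left out, with adjusted p from 0.246 to 0.554. With a covariate in the fit it was -0.52 for the beta-actin ratio, -0.55 for that of Gapdh and -0.56 for the mean of the fat markers, with adjusted p of 0.226, 0.444 and 0.277. The difference lay further down than that of Kdr by 0.63 and than that of Eng by 0.75 on the log2 scale, with no overlap between groups in either ratio. These comparisons were chosen after the values were seen, and their exact permutation p was 0.0286, the smallest that the test can give. Adjusted over 5 it became 0.0715, so they did not pass. With 4 pools per group the test is too coarse to decide the question. Against Vwf the gap was 0.47 (exact permutation p = 0.143, adjusted p = 0.238).

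Other cells that carry PECAM-1 were read through their own markers. Platelet and megakaryocyte markers (4 of 10 with a probe set, 3 past the filter) summed to 627 to 723 in normoxic and 549 to 714 in hypoxic pools. Leukocyte markers (13 of 13 with a probe set, 9 past the filter) summed to 4911 to 6220.2 and 4560.1 to 5345. Both sums overlapped between groups, with exact permutation p of 0.343 and 0.143. Of the 9 tested leukocyte genes 0 passed limma, 3 had a difference above 0 and 6 below. Those above 0 were Csf1r (log2 0.14), Cd74 (0.17) and Aif1 (0.21). An unadjusted p under 0.05 was found for 3 (33.3%), against 8.56% of all named genes. All 3 were lower in hypoxic pools: the complement genes C1qa (log2 -0.42), C1qb (-0.38) and C1qc (-0.34), made by macrophages. For C1qa and C1qc every hypoxic pool lay below every normoxic pool. The part of these cells in the level of Pecam1 was not tested.

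Vwf, which encodes the clotting protein von Willebrand factor stored in endothelial granules, varied more among hypoxic pools than between groups. It measured 152.5, 161.6, 186 and 143 in normoxic and 98.3, 162.4, 227.8 and 150.2 in hypoxic pools. Hypoxic pools held both the lowest and the highest value, so the hypoxic SD was 53.2 against a normoxic one of 18.5. On the log2 scale Vwf differed by -0.05 (95% interval -0.51 to 0.4, adjusted p = 0.969). This changed sign without hypoxic pool 1 (0.14), without normoxic pool 3 (0.01), with quantile normalization (0.01) and when the beta-actin ratio was a covariate (0.14). Vwf correlated with that ratio at r = 0.835 and rho = 0.619 (exact permutation p = 0.013 and 0.115; adjusted over 36 relations 0.186 and 0.591), at 0.53 without the 2 pools farthest from the median ratio, at 0.432 within normoxic and at 0.969 within hypoxic pools. Each group holds 1 of those 2 pools.

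Edn1 encodes the precursor of endothelin 1, a peptide of the endothelium that constricts vessels and can also stimulate steroid secretion. Its probe set was dim, near the filter's signal of 95.2. It measured 105.8, 110.1, 106.2 and 93.3 in normoxic and 104.8, 96.5, 87 and 94.9 in hypoxic pools, and the groups overlapped. The means of 104 ± 7.3 and 95.8 ± 7.3 put the log2 difference at -0.10, between -0.43 and 0.22 at 95% confidence (adjusted p = 0.897).

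**Figure D3:**
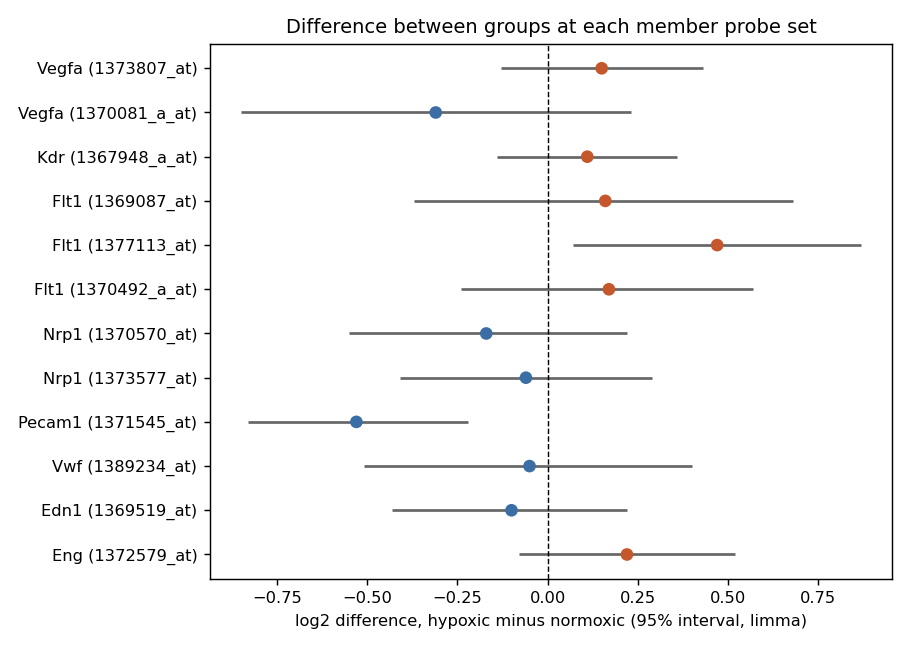
Log2 difference, hypoxic minus normoxic (horizontal axis), at each member probe set, as points with 95% intervals from limma over 4 pools per group; orange points are above 0 and blue points below. The intervals of Pecam1 (-0.83 to -0.22) and of Flt1 at 1377113_at (0.07 to 0.87) leave out 0, and neither probe set has an adjusted p under 0.05.

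Hypoxic pool 1 stood low for several members. It was the lowest hypoxic pool at 8 of the 12 probe sets and the lowest of all 8 pools at 4, and its beta-actin ratio was the lowest as well. Without that pool the log2 differences were 0.36 for Flt1 at 1369087_at, 0.27 at 1370492_a_at and 0.54 at 1377113_at, 0.18 for Kdr, -0.12 for the dimmer Vegfa probe set, -0.47 for Pecam1 and 0.14 for Vwf, whose sign turned, with adjusted p from 0.268 to 0.886.

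The gene most like each member over the 8 pools was sought by Pearson correlation of log2 values among the tested probe sets, with each member at its brightest probe set. It was Maoa for Vegfa (r = 0.965), Man2c1 for Kdr (0.984), Scarb1 for Flt1 (0.967), Gng11 for Nrp1 (0.987), Skap2 for Pecam1 (0.951), Zfp503 for Vwf (0.975), Top1 for Edn1 (0.929) and Grwd1 for Eng (0.96). Each is the highest correlation over all tested probe sets with 1 gene symbol and rests on 8 points, so it is given as a description. For none of the members was another member the most alike. Dimmer probe sets of the same gene did not always follow the brightest one. Their r with it was -0.126 for Vegfa, 0.935 and 0.0637 for Flt1, and 0.909 for Nrp1.

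The wider vascular pathways were read through 9 lists of 160 symbols, of which 128 had a probe set and 104 were tested. Each gene was read at its brightest tested probe set. Of the 104 genes 0 passed limma over all probe sets, 52 had a difference above 0 and 52 below, and the median was 0.0, beside -0.00891 over all 8011 named genes. An unadjusted p under 0.05 was found for 6 of the 104 (5.77%), and for 8.56% of all named genes. These were Vegfc, Lyve1 and S1pr1, higher in hypoxic pools, and Pecam1, Klf2 and Slit3, lower.

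In the VEGF family, 8 of 10 genes with a probe set were tested, 6 with a difference above 0 and 2 below, with a median of 0.1. Of all 8011 named genes 3808 were above 0. Vegfa counts among the 6 by its brighter probe set, and was at -0.08 with both probe sets averaged. Vegfc encodes a ligand of lymphatic and blood vessel endothelium. It measured 674.4, 662.3, 622.4 and 603 in normoxic and 818.1, 877.4, 808.3 and 730.8 in hypoxic pools. All hypoxic pools lay above all normoxic pools. The means of 641 ± 33.5 and 809 ± 60.2 gave a log2 difference of 0.33 with a standard error of 0.10 (adjusted p = 0.309), so Vegfc did not pass. Vegfb and Pgf, ligands of VEGFR1, had log2 differences of -0.10 and 0.10.

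Of the angiopoietin list 4 genes were tested, with a median of 0.08. Angpt2, a ligand of the Tek receptor, had a log2 difference of -0.01, the endothelial phosphatase gene Ptprb 0.18 and Angptl4, a secreted inhibitor of lipoprotein lipase, 0.26, with adjusted p from 0.709 to 0.989. In the endothelin list 2 genes were tested, and beside Edn1 this was Ece1, the enzyme that cuts the precursor to endothelin 1, at 2292 ± 559 and 2196 ± 707 (log2 difference -0.09, adjusted p = 0.952).

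Among 31 tested genes of endothelial identity and junctions, 16 had a difference above 0 and 15 below, with a median of 0.03. Of the 35 genes of this list with a probe set, 4 were too dim to be tested, with means of 78.8 and 69.6 for the nitric oxide synthase gene Nos3, 98.0 and 67.5 for Procr, 38.9 and 52.9 for Fli1 and 6.47 and 4.95 for Sox17. Other endothelial markers were bright. The sinusoidal marker Emcn measured 1289 in normoxic and 1111 in hypoxic pools on average, the fenestral diaphragm gene Plvap 771 and 642, and the junction gene Esam 550 and 575. The summed level of the 35 genes with a probe set ran from 17909 to 20615 in normoxic and from 19055 to 20457 in hypoxic pools (exact permutation p = 0.971). Lyve1, a receptor of lymphatic and some sinusoidal endothelium, measured 359 ± 28.1 and 474 ± 85.7 with no overlap between groups (log2 difference 0.37, adjusted p = 0.432). Klf2, a flow-responsive transcription factor of endothelium, measured 500 ± 45.8 and 402 ± 58.9, also with no overlap, and its lowest value, 314.5 in hypoxic pool 4, lay apart from the remaining values of that group (-0.31, adjusted p = 0.527). At its dimmer tested probe sets Klf2 was at -0.19 and -0.24, and there the groups overlapped. S1pr1, a receptor for sphingosine 1-phosphate, measured 1041 ± 200 and 1277 ± 135 (0.30, adjusted p = 0.576).

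The list of TGF-beta and BMP signalling, Eng included, gave 7 differences above 0 and 9 below among 16 tested genes, with a median of -0.06. Those with the lowest p were the receptor gene Acvrl1 (log2 difference -0.34), the ligand gene Tgfb3 (0.36, with hypoxic pool 2 at 309.9 apart from the other hypoxic pools) and the BMP target gene Id3 (-0.27), with adjusted p from 0.592 to 0.644. Acvrl1 measured 155 ± 23.3 and 119 ± 16.2 while its co-receptor gene Eng leaned the other way, and the difference between them was not tested. Of 5 Notch genes Jag2 had a log2 difference of 0.33, Hes1 -0.24 and Notch1 -0.12, around a list median of -0.12.

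Genes of leukocyte adhesion and clotting at the endothelium had a median of 0.15 over 5 tested genes, with the adhesion molecule gene Vcam1 at 0.29, Icam1 at 0.20 and the plasminogen activator gene Plat at 0.12. Pericyte and smooth muscle genes had 5 differences above 0 and 10 below among 15, with a median of -0.11. Of these the potassium channel gene Kcnj8 was at -0.23, the pericyte proteoglycan gene Cspg4 at 0.35 and Rgs5 at -0.28. Among 18 other angiogenic factors and inhibitors the median was 0.05. Slit3, a guidance ligand, measured 325 ± 30.8 and 247 ± 45.3 (log2 difference -0.38, adjusted p = 0.451), Fgfr2 differed by 0.35 and the matrix protein gene Ccn2 by 0.34. The dimmer tested probe sets of Fgfr2 went the other way, at -0.11 and -0.13.

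**Figure D4:**
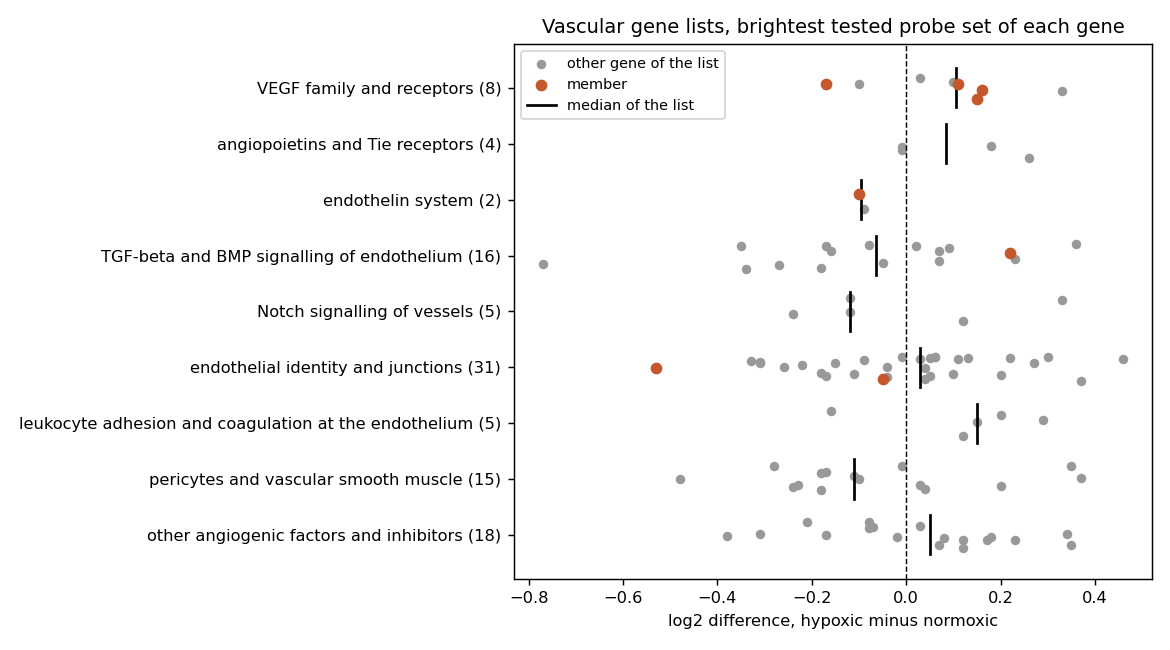
Log2 difference, hypoxic minus normoxic (horizontal axis), of each gene at its brightest tested probe set in the 9 vascular lists (rows, number of tested genes in brackets), with members in orange, other genes in grey and the median of each list as a black bar. The medians lie between -0.12 and 0.15, and Pecam1, at -0.53, is the lowest of the members.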

How the data were processed

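Adrenal RNA from 8 pools was read on 1-colour oligonucleotide arrays. What the authors deposited is 1 intensity per probe set and pool, not on a log scale. The trimmed mean of every array is 500.1, so the deposited intensity had been set to a common mean, which hides any shift common to the transcriptome. The summary software is not named in the labels' protocols. Of 15923 probe sets 57 are controls and were set aside. Of the other 15866, the platform's annotation names 12783 with 1 symbol, 312 with several and 2771 with none, and 12748 of the 12783 have their gene ID in the RefSeq table of GRCr8.

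Intensities were floored at 1, raised by 16 and put on a log2 scale without further normalization, since array medians lay within 0.117. A filter dropped the 30% of probe sets with the lowest mean (signal under 95.2). The test was limma 3.58.1 under R 4.3.3 (moderated, with a variance trend, two-sided) at an adjusted p of 0.05, and the code was tested on simulated data. Means and SDs are of intensities. Exact permutation tests use all 70 splits, or all orders of the pools for correlations. Python 3.11.15, pandas 2.3.3 and matplotlib 3.10.9 made tables and plots. The number of arrays limits the precision.

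Genes named by rule are all members, the 3 other genes with the lowest p in each list, list genes with an adjusted p under 0.05, and the 1 gene most like each member. Emcn, Plvap, Esam, Nos3, Procr, Fli1, Sox17, Ucp1, C1qa, C1qb, C1qc, Csf1r, Cd74, Aif1, Ddc and Slc4a1 fall outside it. They were chosen after their values were seen. Members and lists were chosen with earlier results of these data known. Alternatives were other filters, offsets and normalization, no variance trend, the replicate number as a block, RNA ratios or fat markers as covariates, averaged probe sets and each pool left out. The beta-actin and fat covariates were added after the data were seen.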

Additional observations from a re-analysis of the deposited data

Results flagged for a closer look

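In 74 groups of 4 pools checked, those of the member probe sets and of the genes named from the lists, 2 held a pool far from the others, where chance alone gives such a gap in about 1 of 20 groups. For Tgfb3, hypoxic pool 2 measured 309.9 while the other hypoxic pools lay between 378.6 and 388.4. For Klf2, hypoxic pool 4 measured 314.5 while the other hypoxic pools lay between 418.4 and 439.3. None of the 12 member probe sets held such a pool in either group.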

How the results depend on the processing

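No member probe set had an adjusted p under 0.05 in any fit that was run, with the replicate number as a block (0 calls, smallest adjusted p 0.22) or with 1 pool left out (0 in each) included. The smallest adjusted p of a member over the refits with all pools ran up to 0.659, with the filter at the 50th percentile, where 6 member probe sets were left to test and Pecam1 was not among them. Over the whole table the 20 calls became 0 with no filter, with no variance trend and with the Gapdh ratio as a covariate, 37 with the beta-actin ratio and 9 with the fat markers as a covariate, 18 with the replicate block, and from 0 to 31 with 1 pool left out; the cause was not tested. Of 129 member values refitted with all pools, 124 kept their direction and side of the threshold. The threshold was on the adjusted p, or on the unadjusted p for the exact permutation test. No member passed the adjusted threshold in any fit, so for the refits this count rests on direction alone. Those that turned were Vegfa, -0.08 with its probe sets averaged, Nrp1 at 1373577_at, 0.02 with the fat markers as a covariate, and Vwf, 0.01 with quantile normalization and 0.14 with the beta-actin ratio; the cause was not tested. The unadjusted call of Flt1 at 1377113_at (log2 0.47) was lost in the exact permutation test, which is coarse with 4 pools per group, when the fit held the Gapdh ratio, and in 4 of the 8 fits that left out 1 pool. Of 93 values with 1 pool left out, 4 turned, those of Nrp1 at 1373577_at (range -0.18 to 0.03) and of Vwf (range -0.23 to 0.14). Flt1 and Edn1 were dim, near the filter's signal of 95.2, which limits what their probe sets can show. The labels link same-numbered pools by the number alone and do not say whether they were handled together. The correlations of their deviations from the group means, for replicates 1 to 4, were 0.323, 0.0026, 0.186 and -0.0434. Not every pool correlated best with its own number.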
